A study of Homo sapiens with 4 samples.

Results

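To ask which RNAs came down with mutant AKT1, Flag-tagged AKT1 E17K was expressed in MDA-MB-231 cells and immunoprecipitated for RIP-seq. Of the 4838 peaks found with this plasmid, the ones described here are well covered, with at least 300 reads over the immunoprecipitate and the input together. They were selected on this sum. The 5 peaks in AKT1 itself were left out, with their folds of 1.34 to 1.70 already known, because the transfected plasmid carries that gene. Another 4409 peaks held fewer reads, and the rest, 8.76% of the list, make up the well-covered peaks. The libraries were 4, 1 per group: the anti-Flag immunoprecipitate (IP) and the input of cells with the AKT1 E17K plasmid, and the same pair for AKT1 wild-type (WT). All cells were MDA-MB-231, a human triple-negative breast cancer line with mesenchymal features, grown in serum, and they kept their own AKT1 beside the plasmid. RNA came from the supernatant of a centrifuged whole-cell lysate and was depleted of rRNA. The deposited list gives a read count for the IP and for a control, taken here to be the input as the samples are labelled, although the series' protocol also mentions control IgG. The fold of a peak is its IP reads over its input reads. No library totals were found in the sources used here, so the fold is not scaled by depth, and a fold of 1 is not the level of no enrichment. Each peak was therefore set against the median fold of the well-covered peaks, 2.01. With 1 library per arm, all intervals are 95% exact binomial (Clopper-Pearson) intervals, which cover counting error only, and no difference has a replicate check.

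AKT1 is a cytoplasmic serine/threonine kinase that is recruited to phosphoinositides of the plasma membrane through its pleckstrin homology domain, and the E17K change in that domain broadens its lipid binding. It has no classical RNA-binding domain. mRNAs for secreted and membrane proteins are translated at the endoplasmic reticulum, mRNAs for cytosolic, nuclear and most mitochondrial proteins on free ribosomes. RIP without crosslinking recovers RNA that is bound directly, RNA held through partner proteins and abundant RNA that carries over.

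The identity of the cells was checked on marker genes. All 7 mesenchymal markers looked for (VIM, CD44, CAV1, CAV2, FN1, AXL and EGFR) had a peak among all those found with Flag-AKT1 E17K, and 2 of them, VIM and EGFR, had a well-covered one. None of 7 luminal or epithelial markers (ESR1, PGR, ERBB2, GATA3, FOXA1, CDH1, EPCAM) had a peak. For CDH1 and EPCAM the annotation used did not give the strand, and on their chromosomes, 16 and 2, the list held only the plus label. On the strand of FOXA1, the plus label of chromosome 14, it held 5 peaks, the ones in AKT1. For FOXA1, CDH1 and EPCAM the absence of a peak therefore says little. Positions fit GRCh38: 416 of the well-covered peaks (98.1%) overlapped the span of a protein-coding gene in the RefSeq annotation, compared to 54.5% after a shift of 1000000 bp. Another 6 peaks lay in other genes only (SNHG1, NORAD, SNHG32, RPL13AP5 and SNHG15 with 2), and 2 lay in no gene. The peaks carried 300 gene names in all, with 12 peaks that kept a pair of names. Where the gene's strand was known, the strand label of the list was opposite to it in 286 of 289 peaks. Many of these genes (ribosomal proteins, histones, tubulin, PABPC1, HSPA8) have close copies elsewhere in the genome. How reads that fit several copies were counted is not given in the sources used here, so their counts are uncertain.

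mRNAs of ribosomal proteins were found at both ends of the fold, and most of them share a start that the selection did not use. Ribosomal protein mRNAs characteristically begin with a C followed by a run of pyrimidines, the terminal oligopyrimidine motif, through which mTORC1, a kinase complex downstream of AKT, controls their translation. The following windows hold 15 bases before and 15 bases from the annotated start (RefSeq, GRCh38.p14), written in the direction of transcription, with capitals for the pyrimidine run from the start on.
RPS9, chr19:54200843-54200872, plus strand: gtggcgcttccgcgcCTCTTTCTCagtgac
RPL36, chr19:5690280-5690309, plus strand: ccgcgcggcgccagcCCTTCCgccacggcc
RPS13, chr11:17077653-17077682, minus strand: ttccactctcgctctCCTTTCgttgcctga
RACK1, chr5:181243892-181243921, minus strand: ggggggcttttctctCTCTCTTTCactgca
RPS14, chr5:150449725-150449754, minus strand: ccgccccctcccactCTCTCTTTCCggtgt
RPS12, chr6:132814554-132814583, plus strand: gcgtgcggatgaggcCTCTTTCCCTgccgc
These genes are shown because RPS9 and RACK1 had peaks on both sides of the median, RPL36 and RPS13 had a peak above it, and RPS14 and RPS12 lay below it. A start of C and 4 further pyrimidines (C or T in each position, gene strand only) was found in 31 of 219 genes of the well-covered peaks (14.2%) and in 5.14% of all 27305 genes of the table, and in 13 of 15 cytosolic ribosomal protein genes. The 13 are among the 31. The table also holds genes without any peak, whereas well-covered peaks need many reads in IP and input together. The difference between these shares is therefore no result about binding to AKT1 E17K. Among the well-covered peaks, the 51 in genes with this start had a median fold of 1.98, with 9 above and 9 below the reference beyond counting error. The 258 in genes with another start had a median of 2.02, with 16 above and 16 below. In both groups as many peaks thus lay above as below. The share on either side was larger with this start, 9 of 51 compared to 16 of 258. The peaks with this start also held more reads in the median, and more reads give narrower intervals. These shares therefore cannot be compared as such.

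The well-covered peaks formed a narrow distribution. They held 38.4% of the IP reads in peaks and 37.8% of the input reads, with 300 to 7775 reads each (median 483) and a width of 200 to 19320 bp (median 1000). The middle 50% of the folds lay between 1.85 and 2.19, and 243 peaks (57.3%) lay within 10% of the median. The whole range went from 1.17, in PLEC, to 3.10, in UQCC1. Over all peaks of the list without AKT1 the median was 2.18. A peak of 300 reads at the median has an interval that reaches 28.5% up and 21.7% down, compared to 4.87% and 4.63% for the peak with the most reads, in AHNAK. Counting error alone would give a mean squared deviation of 1 in units of its own variance. The well-covered peaks gave 2.58, and 1.99 without the 4 peaks in PLEC. In 353 peaks the interval held the median. It lay above the median in 32 peaks of 31 genes (7.55%; 4.74% over the whole list) and below it in 39 peaks (9.20%; 2.44% over the whole list). These shares cannot be compared as such, because more reads give narrower intervals.

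**Figure D1:**
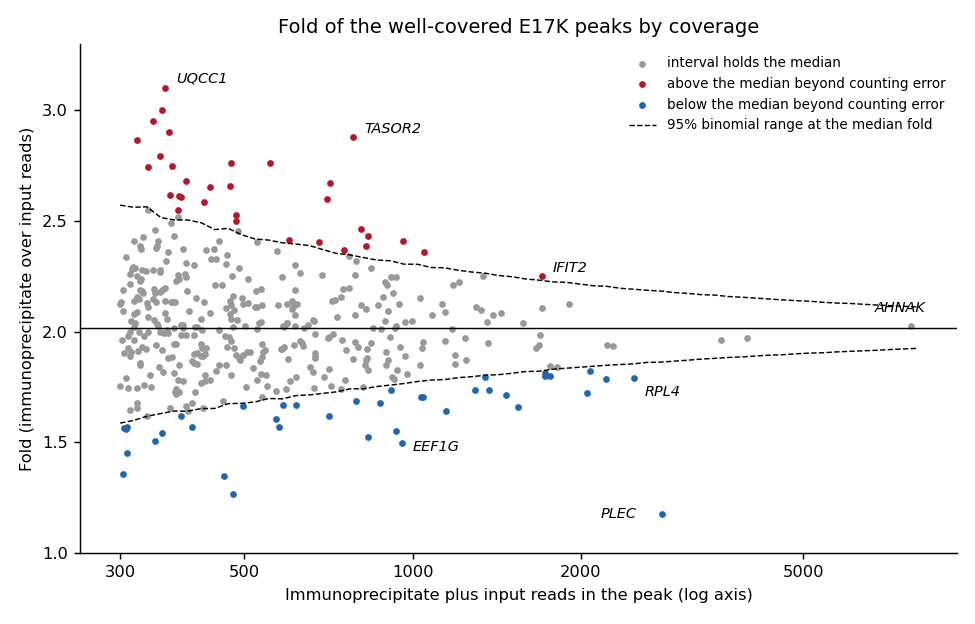
Fold (IP over input reads) of each well-covered peak against its reads on a log axis, with the median fold of 2.01 as a solid line and the range of 95% of binomial counts at that median as dashed lines. Most peaks lie between the dashed lines, and the widest departure for its coverage is the PLEC peak with 1507 IP and 1283 input reads.

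The highest fold was that of UQCC1, an assembly factor of respiratory complex III, with 273 IP and 88 input reads (fold 3.10, 2.43 to 3.99). RAD21, a subunit of the cohesin ring, had 267 and 89 reads (fold 3.00). A ribosomal protein pair followed, RPS9 with 257 and 87 reads (2.95) and RPL36 with 273 and 94 reads (2.90). TASOR2, a nuclear protein related to the HUSH silencing complex subunit TASOR, had 582 and 202 reads (2.88, 2.45 to 3.40). The next were FAM168B with 238 and 83 reads (2.87) and the P-body RNA helicase DDX6 with 260 and 93 (2.80). SON, an organizer of nuclear speckles, had 409 and 148 reads (2.76). The histone gene H3C1 had 348 and 126 reads (2.76), and HNRNPA0, an hnRNP that binds AU-rich RNA, 272 and 99 (2.75). Every one of these 10 peaks except those of TASOR2 and SON held under 500 reads, so the upper end was mostly made of peaks near the threshold. Only the TASOR2 peak passed the adjustment for all peaks tested (adjusted p = 0.00953, two-sided exact binomial test, Benjamini-Hochberg over 4833 peaks; 1 peak or 0.0207% of the whole list had more IP reads at that threshold). This call was lost against the median of all peaks of the list, 2.18, where 0 peaks had more. PPP2R2A, the PP2A subunit that the study followed as a protein and which was picked here after its value was seen, came next with 247 and 90 reads (2.74, 2.15 to 3.53; adjusted p = 0.445 in the same exact test).

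The lower end was led by PLEC, which codes for plectin, a giant linker of intermediate filaments to other parts of the cytoskeleton. All of its 4 well-covered peaks, on chromosome 8, lay below the median. The peak at chr8:143915126-143923325 had 1507 IP and 1283 input reads (fold 1.17, 1.09 to 1.27), the one at chr8:143932141-143933370 had 267 and 211 (1.27), the one at chr8:143929066-143930705 had 264 and 196 (1.35), and the one at chr8:143933986-143935420 had 353 and 225 (1.57). Summed, PLEC had 2391 IP and 1915 input reads (fold 1.25, 1.18 to 1.33). After it came 1 of the RPS9 peaks with 175 and 129 reads (1.36) and a peak in LOC102724250 with 183 and 126 reads (1.45). The latter lies at chr1:629401-630000, among copies of mitochondrial DNA in the nuclear genome (MTND1P23 and MTND2P28), so the origin of its reads is uncertain. EEF1G, a subunit of the translation elongation factor 1 complex, had 574 and 384 reads (1.49, 1.31 to 1.71). SRRT, which couples capped RNA to nuclear processing, had 208 and 138 reads (1.51). The ribosomal protein gene RPL30 had 503 and 330 reads (1.52), NIBAN2 216 and 140 (1.54), and the 14-3-3 protein gene YWHAZ 567 and 366 (1.55). After adjustment, 4 peaks had fewer IP reads than the median fold gives (0.0828% of the whole list), and they were 3 of the PLEC peaks (adjusted p = 5.56e-41, 0.00157 and 0.0236, two-sided exact binomial test) and the EEF1G peak (adjusted p = 0.00953). The fourth PLEC peak had an adjusted p of 0.329 in the same exact test.

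Peaks of the same genes that hold fewer than 300 reads are other stretches of the same transcripts in the same libraries. They were not selected here, but they are in the list only because a peak caller kept them. Its requirement of enrichment can keep low folds out, most of all where reads are few. This can shift the folds and calls of smaller peaks toward more IP reads, so they are no independent check. Of the 57 gene names with a well-covered peak above or below the median, 33 also had such smaller peaks. The 4409 smaller peaks had a summed fold of 2.13, and each gene's summed smaller peaks were set against it. PLEC had 10 smaller peaks, with folds from 1.0 to 2.2, of which 8 lay under 2.13. Together they had 484 IP and 329 input reads (fold 1.47, 1.28 to 1.70; adjusted p = 0.000179, two-sided exact binomial test with Benjamini-Hochberg adjustment over 1523 genes). The intervals of SRRT (1.43, 1.02 to 2.0), RPL11 (1.44, 1.0 to 2.1) and SEC16A (1.07, 0.619 to 1.86) also lay below 2.13, but these rest on 1 or 2 smaller peaks each, and their adjusted p values were 0.309, 0.376 and 0.238 in the same exact test. The other 10 of the 14 genes below the median had intervals that held 2.13, and 5 of the 14 had a fold over it. Summed, the smaller peaks of the 14 genes had a fold of 1.88, and 1.99 without PLEC. For the 18 genes above the median the pattern did not carry over. All 18 had intervals that held 2.13, 10 of 18 were over it, and their 105 smaller peaks had a summed fold of 2.17. TASOR2 had 317 and 122 reads in 9 smaller peaks (2.60, 2.10 to 3.23), RAD21 594 and 243 in 11 (2.44, 2.10 to 2.85) and PPP2R2A 96 and 39 in 4 (2.46, 1.68 to 3.67). SON (1.79), FAM168B (1.83) and HNRNPA0 (1.61) lay under 2.13. EEF1G, with well-covered peaks on both sides, had 167 and 87 reads in its smaller peaks (1.92, 1.47 to 2.52). Over all 1523 genes, 6.43% had an interval above and 4.53% one below 2.13, and 0.722% and 0.263% passed the adjustment with more and with fewer IP reads. The 11 that passed with more, such as SMC3 with a fold of 5.91 and PRKDC with 2.57, had no well-covered peak. The 4 genes that passed with fewer, named after their values were seen, were TLN1, which codes for the adhesion linker talin and had no well-covered peak, PLEC, DDB1 and CBX6. The well-covered peaks of DDB1 (1.91) and CBX6 (2.14) had intervals that held the median.

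Genes were then put into classes by the best known place of the encoded protein. The whole list held peaks on only 27 combinations of chromosome and strand label, so genes on other strands are missing from every class and gene list. No test was run between classes, because peaks of 1 pair of libraries are not replicates of a class. Over all well-covered peaks, 7.55% lay above and 9.20% below the reference beyond counting error. The 110 peaks of nuclear proteins had a median fold of 2.05, with 12 above and 3 below the reference beyond counting error. The 199 peaks of cytosolic proteins had a median of 1.99, with 16 above and 27 below. The 58 peaks of secreted or membrane proteins had a median of 1.98, with 0 above and 4 below. The 31 peaks of mitochondrial proteins had a median of 2.11, with 1 above, UQCC1, and 0 below. Order-statistic 95% intervals of these medians, which treat peaks as independent although some share a gene, were 2.01 to 2.12 for nuclear, 1.95 to 2.05 for cytosolic, 1.92 to 2.02 for secreted or membrane and 1.98 to 2.19 for mitochondrial proteins. They serve only as a yardstick for class medians under other settings. All peaks share the same libraries, so these intervals do not measure the uncertainty of a class and give no comparison between classes. Single peaks spread more widely, and the middle 50% of folds went from 1.89 to 2.24 for nuclear and from 1.82 to 2.19 for cytosolic proteins. The classes did not have the same coverage, with a median of 450.5 reads for nuclear, 539 for cytosolic, 496 for secreted or membrane and 362 for mitochondrial proteins, and the part of coverage in these values was not tested beyond the following. Among the peaks with the most reads (634 to 7775), 2 of 26 nuclear, 18 of 87 cytosolic and 1 of 19 secreted or membrane peaks lay below. Among those with the fewest (300 to 394), the counts below were 1 of 41, 3 of 58 and 2 of 17. The counts above were 5, 6 and 0 with the most reads and 4, 7 and 0 with the fewest. From low over middle to high coverage, the medians were 2.09, 2.03 and 2.04 for nuclear and 2.12, 2.02 and 1.94 for cytosolic peaks. They were 2.0, 1.96 and 1.96 for secreted or membrane and 2.15, 2.02 and 2.04 for mitochondrial peaks. The nuclear median thus lay under the cytosolic one at low coverage and over it at high coverage.

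**Figure D2:**
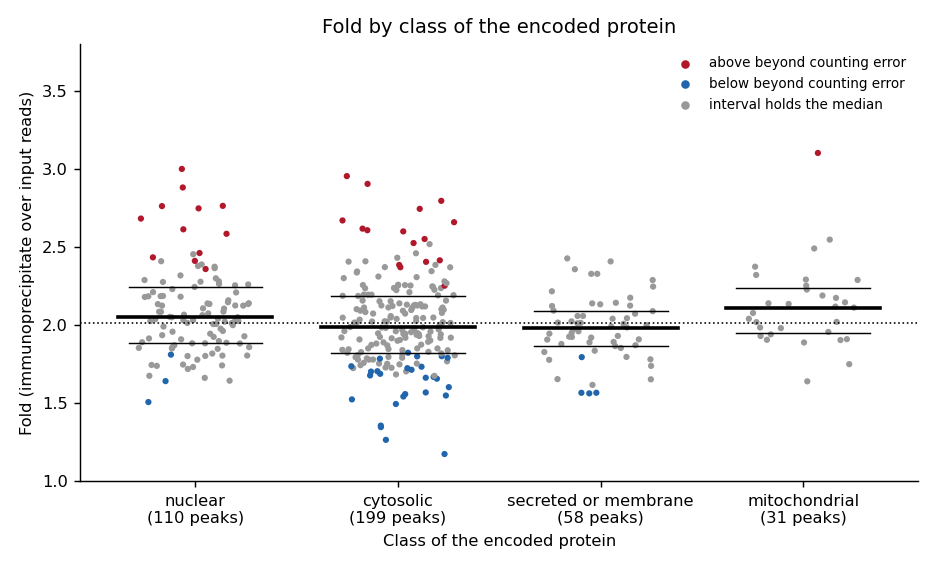
Fold of the peaks of 4 protein classes, with the class median as a thick line, the quartiles as thin lines and the median of all well-covered peaks as a dotted line. Class medians lie between 1.98 and 2.11, and the blue points below the median are 27 cytosolic, 3 nuclear and 4 secreted or membrane peaks.

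Of the nuclear genes above the median, H1-2 (2.46), H4C2 (2.43) and H3C1 (2.76) code for replication-dependent histones, which package new DNA in S phase, and their mRNAs lack a poly(A) tail in cycling cells. The 13 peaks of replication histones, a group formed after the list was seen, had a median of 2.03, with 3 above and 0 below. They held a median of 810 reads, against 483 for all well-covered peaks, of which 7.55% lay above and 9.20% below. More reads give narrower intervals, so these counts cannot be compared with those shares as such. A list of RNA processing genes had 7 with well-covered peaks (DDX21, HNRNPA2B1, HNRNPH1, HNRNPK, PTBP1, SRSF3 and THRAP3), with 15 peaks, a median of 2.04, 3 above and 0 below. The RNA processing peaks held a median of 422 reads. The list leaves out SRRT, which lay below, and HNRNPA0 and DDX6, which lay above. The 3 above were a pair in DDX21, a nucleolar RNA helicase (2.68 and 2.36), and 1 in HNRNPA2B1 (2.41). In the chromatin and transcription group, TASOR2 was the one peak above and TRIM28, a corepressor of KRAB zinc finger proteins, the one below (714 and 435 reads, 1.64), out of 7 peaks. The MYC peaks in this group had folds of 2.13 and 2.19.

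Among cytosolic proteins, a list of cytoskeleton genes had 9 with well-covered peaks (ACTN4, AHNAK, CAP1, CFL1, PLEC, TPM4, TUBB, VCL and VIM), with 17 peaks and a median of 1.92, of which 0 lay above and 6 below. These peaks held a median of 574 reads, against 483 for all well-covered peaks, of which 7.55% lay above and 9.20% below. CTTN, which codes for the actin-binding protein cortactin and is not on the list, lay above (267 and 102 reads, 2.62, 2.08 to 3.32). The 6 below were the 4 of PLEC, 1 of the 5 peaks in VIM, the intermediate filament protein vimentin (351 and 219 reads, 1.6), and 1 of the 2 in TUBB, a beta-tubulin (1131 and 628 reads, 1.80). AHNAK, a giant scaffold protein and the peak with the most reads of all (5203 and 2572), had a fold of 2.02 (1.93 to 2.12). The part of transcript length and coverage in the folds of these genes was not tested. Cytosolic ribosomal proteins had 30 peaks in 20 genes with a median of 1.93, of which 4 lay above and 9 below. With a median of 765.5 reads these peaks have narrower intervals, so the counts cannot be compared with the shares over all well-covered peaks as such. Those above were in RPS9, RPL36, RPS13 (2.61) and RPS6 (2.41), and those below included peaks in RPS9, RPL30, RPL11 (1.66), RPS12 (1.67), a pair in RPS14 (1.68 and 1.74) and a pair in RPL4 (1.79 and 1.80). Translation factors had 27 peaks with a median of 2.02, with 2 above, in EEF1G and EIF4G2, and 1 below, in EEF1G.

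In the secreted or membrane class the 4 peaks below were in GANAB, the catalytic subunit of glucosidase II of the endoplasmic reticulum (186 and 119 reads, 1.56), the integrin subunit ITGA3 (188 and 120, 1.57), TEX261 (246 and 157, 1.57) and the endoplasmic reticulum chaperone HSPA5 (867 and 483, 1.80). The growth factor receptor EGFR, upstream of AKT, had 215 and 97 reads (2.22, 1.74 to 2.85). In a list of endoplasmic reticulum and Golgi genes, HSPA5, HYOU1 and SURF4 had 8 peaks with a median of 1.86, with 1 below and 0 above. Genes of these compartments outside the list lay on either side of the median, such as TGOLN2 with 2.33 and 2.41 and MGAT1 with 2.33, all with intervals that held it, and GANAB with 1.56, 2.0, 2.18 and 2.29. From the mitochondrial genome itself there were 2 peaks, COX1 with 238 and 147 reads (1.62, below) and ND5 with 239 and 127 reads (1.88).

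Peaks of the same gene come from the same transcripts and show how far the fold varied along one RNA. Of 66 genes with at least 2 well-covered peaks, 58 had intervals that all overlapped. In the median gene the highest fold was 1.18 times the lowest. PABPC1, the poly(A)-binding protein, had the most peaks, 8, with folds from 1.78 to 2.37, all with intervals that held the median. The 7 peaks each of EIF4G2 (1.74 to 2.39) and of the mitochondrial chaperone HSPA9 (1.64 to 2.37) spread as widely. The chaperones HSPA5 (1.80 to 1.99) and HSPA8 (1.79 to 2.25) and the filament protein VIM (1.6 to 2.02) had 5 peaks each. In 4 genes 1 peak lay above and another below the median. RPS9 had folds of 1.36 at chr19:54202001-54202400 and 2.95 at chr19:54206201-54206800, and 2.0 when summed. EEF1G had 4 peaks, of which the neighbours at chr11:62566821-62567025 and chr11:62567231-62567640 had 1.49 and 2.53. RACK1, a scaffold protein of the small ribosomal subunit, had 1.70, 2.60, 1.95 and 1.82. A pair of peaks that overlap the spans of FTH1, the ferritin heavy chain, and BEST1 had 1.74 and 2.66. In these 4 genes the fold differed between stretches of the same span. Only 16 of the 66 genes had at least 4 peaks. Among those, PLEC was the only one with all of its peaks on the same side beyond counting error. Of genes with fewer peaks, RPS14 had 2 of 2 below, PKM and RPL4 had 2 of 3 below, and DDX21 had 2 of 3 above. Where strand and span were known, peaks in the first, middle and last of 3 equal parts of the gene had medians of 2.02, 1.98 and 2.03.

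**Figure D3:**
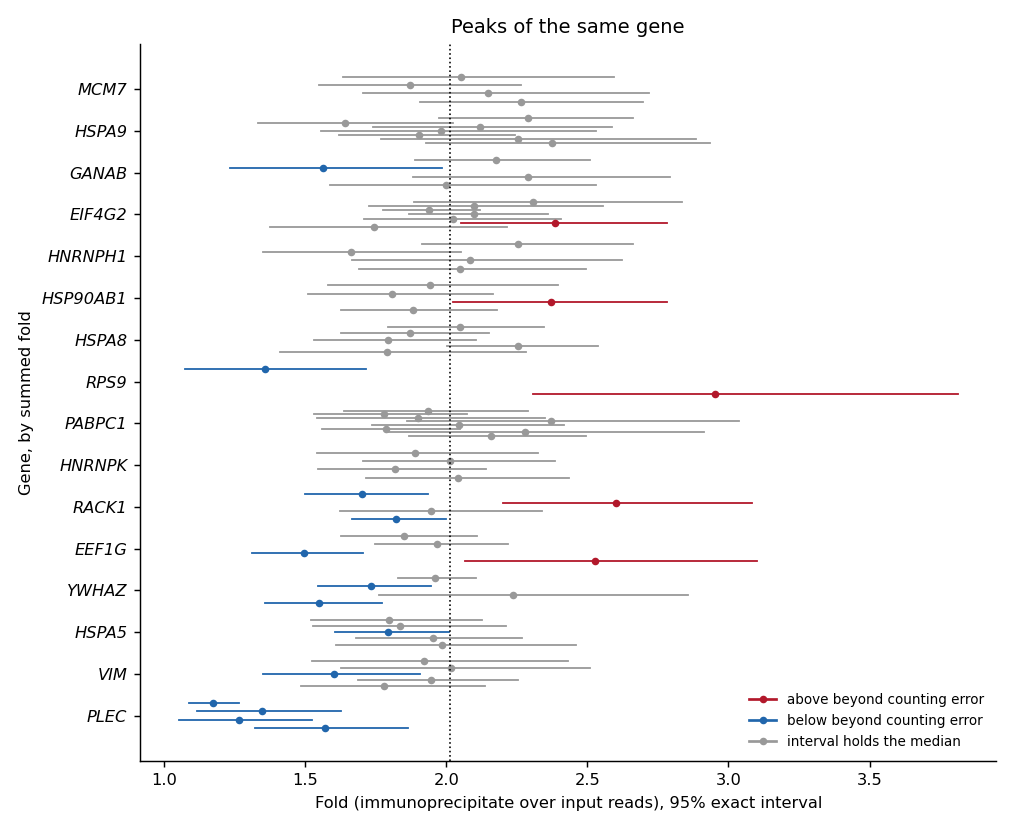
Folds with 95% exact intervals of the well-covered peaks in 15 genes with at least 4 of them, and in RPS9, ordered by the summed fold, with the median of 2.01 as a dotted line. Of the genes drawn, only PLEC has all peaks below beyond counting error, and RPS9, RACK1 and EEF1G have peaks beyond it on both sides.

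Of the 10 peaks with the most reads, 5 lay below the median beyond counting error and 0 above. After AHNAK came PKM, the pyruvate kinase of glycolysis, with 2629 and 1333 reads (1.97), YWHAZ with 2360 and 1203 (1.96) and the first PLEC peak. RPL4 followed with 1594 and 890 reads (1.79), and then the phosphatase gene DUSP1 with 1504 and 777 (1.94) and EIF4G2 with 1469 and 757 (1.94). A second PKM peak had 1421 and 796 reads (1.79), RACK1 had 1340 and 735 (1.82) and ANXA2, a membrane-binding annexin, 1300 and 754 (1.72). From the fewest to the most reads, the medians over 3 groups of peaks were 2.09, 2.01 and 1.96, and 8, 8 and 23 peaks lay below. The 32 peaks above beyond counting error had a median of 473 reads, and the 39 below 873. The chromosome strand moved with the fold as well. The plus label of chromosome 15 held 10 peaks of 5 genes, among them PKM, RPL4 and ANXA2, with a median of 1.80 and 6 below. The plus label of chromosome 7 held 25 peaks with a median of 2.17 and 0 below. These strands differed in coverage too, with a median of 1631.5 and 393 reads per peak. Set against the median of their own chromosome strand, where it held at least 10 peaks, 15 of 181 cytosolic peaks lay below in place of 27 of 199, 2 of 96 nuclear peaks in place of 3 of 110, and 2 of 50 secreted or membrane peaks in place of 4 of 58. Above the strand median lay 17 cytosolic, 9 nuclear and 0 secreted or membrane peaks. Cytosolic peaks thus no longer lay below more often than above. The part of strand and coverage in the class counts was not tested further.

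The Flag-AKT1 WT list was made from libraries that the selection did not use. It held 808 peaks with a median fold of 0.976, and its folds cannot be set against those of Flag-AKT1 E17K, since neither list is scaled for depth. An overlapping WT peak on the same strand label was found for 18 well-covered peaks, in 12 genes on chromosomes 6 and 21, and 337 well-covered peaks lay on strands with at most 1 WT peak. PLEC had no WT readout, since the WT list held 0 peaks on its strand. In the 18 peaks the fold went from 1.67 to 2.76 with Flag-AKT1 E17K and from 0.759 to 1.35 with Flag-AKT1 WT. Set against the WT median, 4 lay above it beyond counting error (4.70% of all WT peaks did) and 1 below (8.91% did). These 18 WT peaks held 343 to 2720 reads, and the shares are over WT peaks of any coverage. Counts and shares cannot be compared as such, because more reads give narrower intervals. Those above were H2AC12 with 205 WT IP and 152 WT input reads (1.35, 1.09 to 1.67), H3C1 with 190 and 153 (1.24, 1.0 to 1.55), H2BC5 with 403 and 348 (1.16, 1.0 to 1.34) and 1 of the HSP90AB1 peaks with 243 and 196 (1.24, 1.02 to 1.5). The 3 histone peaks had a WT median of 1.24 compared to 0.984 for the other 15. With Flag-AKT1 E17K these 3 had folds of 2.76 (H3C1, above), 2.21 (H2AC12) and 1.75 (H2BC5), so H3C1 was the one peak above the median of both lists beyond counting error. The SON peak that was above with Flag-AKT1 E17K had 405 and 398 WT reads (1.02, 0.884 to 1.17), which held the WT median. HSP90AB1, a cytosolic chaperone that has AKT among its clients, had 4 peaks with folds of 1.94, 1.81, 2.37 and 1.88 with Flag-AKT1 E17K and 1.24, 0.759, 0.926 and 1.07 with Flag-AKT1 WT. The remaining pairs were in TUBB, RPS18, RPL10A, RPS12, HMGA1, SRSF3, SNHG32 and the other SON peaks, all with WT intervals that held the WT median. In 11 of 18 peaks the fold lay on the same side of its own list's median (Pearson r of the log folds 0.26, given as a description over peaks of shared libraries).

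**Figure D4:**
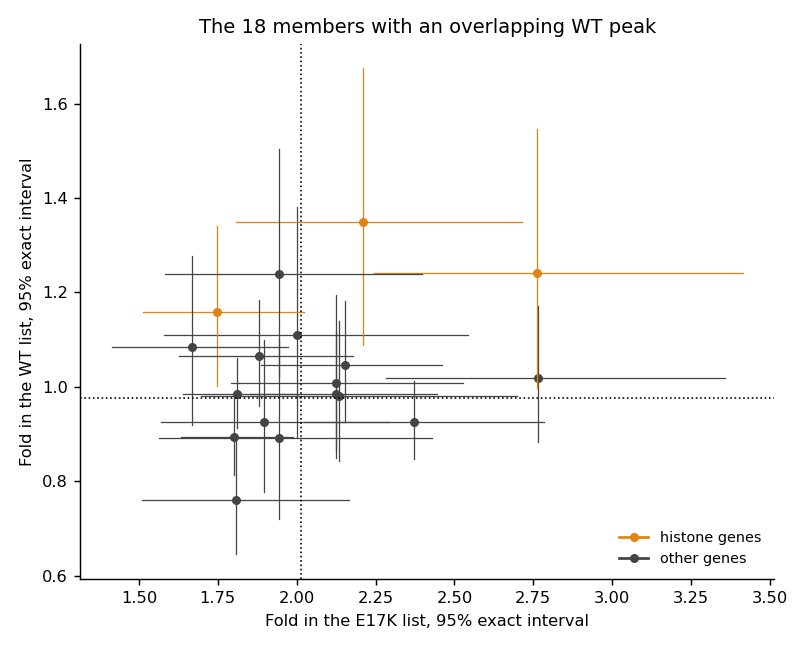
Fold with Flag-AKT1 E17K against fold with Flag-AKT1 WT for the 18 peaks found in both lists, with 95% exact intervals and each list's median as a dotted line. The 3 histone peaks (orange) lie above the WT median, and H3C1 is the one peak above both medians beyond counting error.

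Peaks under the threshold of 300 reads had a summed fold of 2.13 and a median of 2.21, against 1.98 and 2.01 for the well-covered ones. Just inside the threshold were STK10 with 191 and 109 reads (1.75), ADM with 204 and 96 (2.13), CBX6 with 205 and 96 (2.14), RPS25 with 200 and 102 (1.96) and MRPL17 with 208 and 95 (2.19). Just outside were SPRED2 with 198 and 101 reads (1.96), a peak in no gene with 198 and 100 (1.98), HSPA9 with 196 and 100 (1.96), ZC3HAV1 with 212 and 84 (2.52) and DDB1 with 192 and 103 (1.86).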

How the data were processed

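RIP-seq was performed with 1 IP and 1 input library per plasmid. The authors deposited 1 peak list per plasmid, with counts of IP and control reads per peak, not normalized. Their score and p-value columns were not used. The submitters' processing notes name Bowtie2 2.2.8 and hg18, whereas the positions lie in GRCh38 gene spans. The peak caller is not given in the sources used here, and its requirement of enrichment can keep low folds out of the list. On the 19 chromosome strands with at least 20 peaks, widths were whole multiples of a step of 200 to 235 bp that differed between strands. Depth is known only inside peaks.

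Intervals were Clopper-Pearson intervals of the IP share, converted to folds. Adjusted p values came from two-sided exact binomial tests in scipy 1.17.1, adjusted after Benjamini-Hochberg across 4833 peaks (AKT1 left out), or across 1523 genes for peaks under 300 reads, at a threshold of 0.05. They compare libraries, not conditions. The script was tested on simulated data. Peaks were named after protein-coding spans (at least 1 bp), without spans on the labelled strand where another was left, otherwise after other genes. Named genes are those of the 10 highest and 10 lowest folds beyond counting error, the 10 peaks with most reads, genes with at least 5 peaks, adjusted calls, peaks with a WT peak and those nearest to 300 reads, and further group members named after their values were seen. Some genes that this rule names are not reported here. Genes outside the prepared lists were put into classes from their names alone. The members and lists were chosen with earlier results of these data known. The look at peaks under 300 reads was added after the files were seen. Python 3.11.15, numpy 2.4.6, pandas 2.3.3 and matplotlib 3.10.9 were used.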

Additional observations from a re-analysis of the deposited data

How the results depend on the processing

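The counts of 32 peaks above and 39 below the median depend on the reference and on the interval. They were 11 and 101 against the median of all peaks, 13 and 18 with 99% intervals, and 5 and 10 with intervals widened by the spread of the well-covered peaks. With at least 200 reads, 49 peaks lay above, and with at least 500 reads 19 and 19. The threshold of 200 reads takes in more peaks than the main one, and that of 500 reads fewer. These counts therefore change with the size of the set and cannot be compared with the main counts as such. Against the median of the chromosome strand, 24 lay below. After adjustment, 0 peaks had more and 24 fewer IP reads against the median of all peaks, and 7 had fewer by Fisher's exact test against the other peaks. With at least 500 reads the cytosolic median was 1.94. With the AKT1 peaks kept, an alternative added after seeing the data, the mean squared deviation was 9.10. The other 40 of 55 alternative values were counted as close to the main ones, among them 27 of 28 class medians. For counts this was a wide margin, which took in 40 above and 28 below with the reference from summed reads. For class medians it meant lying inside the yardstick interval. Merging touching peaks joined 0 peaks, so the values of that alternative could not differ. Where the cause of a change is not in the alternative's own construction, the cause was not tested. Classes by hydrophobic stretches in the protein were not run, since no protein table was given. No paired analysis was possible because each group had 1 sample. Leaving out a replicate was not possible either.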

Other observations

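Of the 2 well-covered peaks in no gene span, the one at chr10:17238896-17240070 followed the last VIM peak and had 367 IP and 220 input reads (fold 1.67, below the median), and the last VIM peak had 338 and 190 (1.78). The well-covered peaks lay on 25 combinations of chromosome and strand label, of which the plus labels of chromosomes 11 and 5 held the most, with 58 and 55 peaks.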
